A study of Mus musculus with 6 samples.

Results

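The planar cell polarity genes of the mouse mesonephros were followed in embryos that lack Wnt9b. The 10 members were Vangl1, Vangl2, Celsr1, Celsr2, Celsr3, Prickle1, Prickle2, Ptk7, Fat4 and Dchs1, chosen by gene symbol as core polarity and Fat-Dachsous genes, out of 20033 genes in the deposited table. RNA sequencing was done on mesonephroi of 6 male embryos at E12.5. The 3 knockouts were Wnt9b-/- in every tissue, and the 3 controls were labelled heterozygous in the genotype field and Wnt9b+/+ in the design text, so they are called controls here. Strain, litter and the exons removed are not stated in the labels, and each library came from a mouse of its own per the titles. The mesonephros, a kidney that serves the embryo for a short time, comprises the Wolffian duct, the mesonephric tubules and the mesenchyme around them. A library of whole mesonephros mixes these cells, so fewer cells of a type and less RNA per cell cannot be told apart.

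Planar cell polarity aligns cells within the plane of an epithelium. The Celsr cadherins join neighbouring cells, and the membrane proteins Vangl1 and Vangl2 gather with the cytoplasmic Prickle proteins on the side of the cell opposite to Frizzled and Dishevelled. Fat4 and Dchs1 are giant cadherins that bind each other across cell borders in a related pathway, and Ptk7 is a receptor-like pseudokinase that works with Vangl2. In kidney tubules and the Wolffian duct these proteins are known for their part in tube elongation and diameter, and Wnt9b is known to be needed for the orientation of kidney tubule cells.

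Levels are given in TPM, a unit corrected for gene length and library size, so levels of different genes can be set beside each other. The read numbers that could be recovered from the TPM columns put the depth of a library at no less than 27225433 to 31580900 assigned reads. Wnt9b itself, the targeted gene, was at 23.4, 19.2 and 19.0 TPM in knockout mice 1 to 3, against 24.9, 26.4 and 34.0 TPM in control mice 1 to 3. The groups did not overlap, but the log2 difference of -0.44 (SE 0.14) did not pass limma (adjusted p = 0.266); the authors' deposited table marks it as lower (adjusted p = 0.0263). Without the position of the deletion a gene-level value gives little check of the genotype. Summed over 10 markers of duct and tubule epithelium, knockouts lay between 666 and 742 TPM and controls between 788 and 808 TPM. Of these 10, Krt18, Krt8 and Epcam were lower in every knockout and the other 7 overlapped. Cdh1, Gata3 and Ret had the higher mean in knockouts, and Cldn4 was level, at 77.5 TPM in knockouts and 77.4 TPM in controls. Over 5 endothelial markers the range was 272 to 307 TPM in knockouts, against 329 to 351 TPM in controls. Of these 5, Cdh5, Kdr and Tie1 were lower in every knockout, Pecam1 and Emcn overlapped, and none passed limma. Over 9 markers of the gonadal soma the sum was 116 to 197 TPM in knockouts, against 59.1 to 83.4 TPM in controls. Of these 9, Nr5a1, Gata4 and Lhx9 were higher in knockouts (limma adjusted p = 0.0281, 0.0354 and 0.0463). Star, and Cyp11a1 on 2 to 14 recovered reads, were also above every control in every knockout. Sox9, Amh, Dmrt1 and Dhh overlapped. The 8 markers of mesonephric mesenchyme summed to between 2315 and 2509.8 TPM in knockouts and 2220.5 and 2365 TPM in controls, which overlap. Col1a1 and Vim made up most of that sum, and its members differed in direction: Pdgfrb fell (limma adjusted p = 0.0137), Tcf21 rose (limma adjusted p = 0.0197), and Foxd1 was above every control in every knockout (limma adjusted p = 0.0582). The 6 coelomic and Mullerian epithelium markers summed to 288 to 357 TPM in knockouts and 297 to 340 TPM in controls. Of these, Krt19 and Upk3b were above every control in every knockout, Wnt7a was below, and none passed limma. The 9 erythroid markers summed to 16540 to 18483 TPM in knockouts and 13249.5 to 17592 TPM in controls. The 5 macrophage markers summed to 76.7 to 95.2 TPM in knockouts and 78.0 to 113 TPM in controls. No marker was at 0 in any library.

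None of the 10 polarity genes passed the test between knockout and control. The test was limma on log2(TPM + 1), with p-values adjusted by Benjamini and Hochberg over the 17577 genes that reached 1 TPM in 3 or more libraries. It marked 0.444% of all genes at an adjusted p under 0.05, which was 78 genes. Of the members, 9 entered the test and Celsr3 lay under the filter. At an unadjusted p under 0.05, 3 members were lower and 0 were higher, where 5.92% of all tested genes were lower and 5.35% higher. The log2 difference was below 0 for 8 of the 9, against 51.8% of all genes tested, and the median was -0.18 over the 9 and -0.0075 over all genes. The authors' deposited table marks 1 member, Vangl1, which is lower, where 3.55% of its genes have an adjusted p under 0.05 (2.17% lower and 1.38% higher). On the recovered reads limma-voom marked 0 members and 1.60% of genes. The number of genes called over the whole table moved with single libraries, from 13 without control 2 to 243 without knockout 3. The number of members called was 0 in each of these omissions. With 9 members tested and so small a share of all genes called, a count of 0 says little about these genes.

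**Figure D1:**
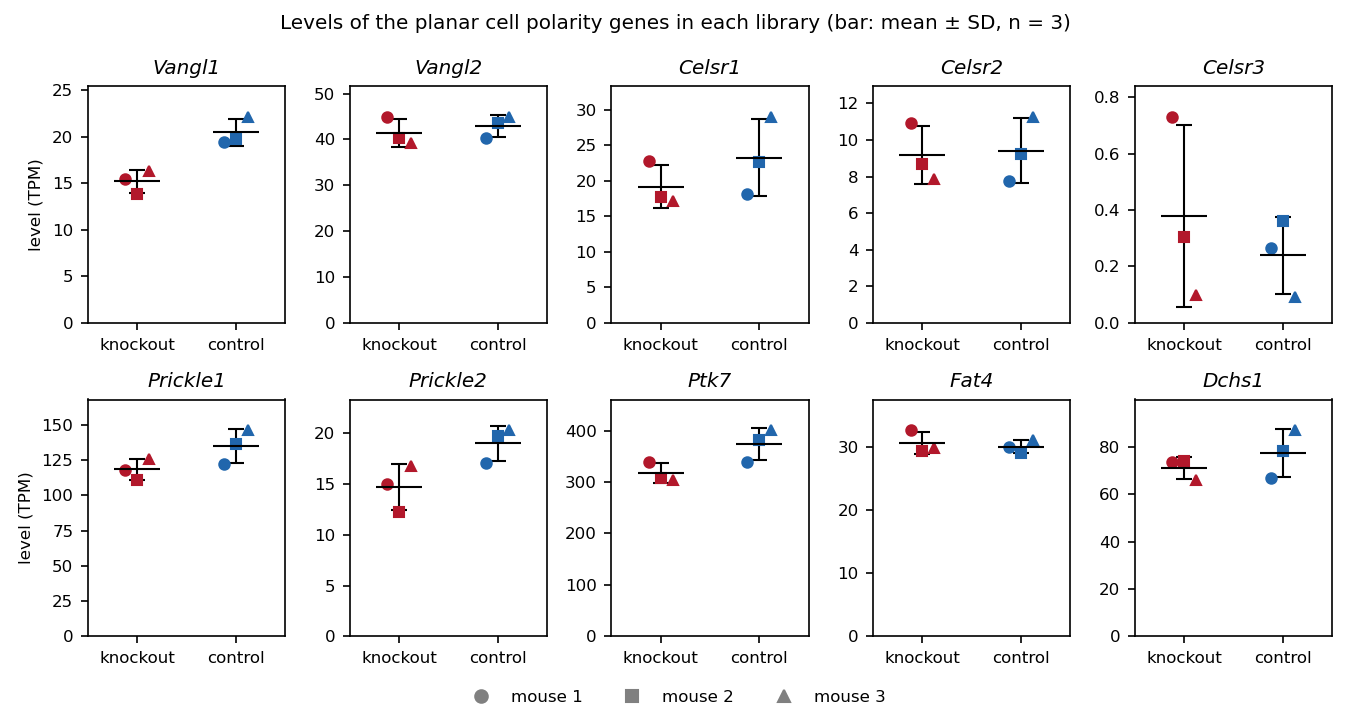
Level of each planar cell polarity gene in TPM (y axis, from 0, a scale per gene) in the 3 knockout libraries (left, red) and the 3 control libraries (right, blue), with symbols for the mouse number and black bars for mean ± SD. The groups are apart for Vangl1 and Prickle2 and overlap for the other 8 genes; Ptk7 is the most abundant and Celsr3 stays below 0.8 TPM.

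Vangl1 (ENSMUSG00000027860) had the smallest p among the members. It stood at 15.5, 13.9 and 16.3 TPM in knockout mice 1 to 3, against 19.5, 19.8 and 22.1 TPM in control mice 1 to 3. Every knockout library lay below every control library. The knockout mean was 15.2 ± 1.22 TPM and the control mean 20.5 ± 1.46 TPM (SD, n = 3 each), so the knockouts held 74.4% of the control level. The log2 difference was -0.40 (SE 0.11, 95% confidence interval -0.65 to -0.16), with an unadjusted p of 0.00513 and an adjusted p of 0.191 by limma. For Vangl1 the authors' deposited table lists a log2 fold change of -0.42 (adjusted p = 0.00425). On the recovered reads, 834 to 1357 per library, limma-voom gave an adjusted p of 0.0506. Over all 13 alternative settings the log2 difference of Vangl1 stayed between -0.45 and -0.34 and its adjusted p between 0.0506 and 0.494.

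Vangl2 (ENSMUSG00000026556), the paralog whose loss causes open neural tubes in mice, did not share that pattern. It was measured at 44.9, 40.4 and 39.2 TPM in knockout mice 1 to 3, against 40.3, 43.6 and 44.8 TPM in control mice 1 to 3. The highest and the lowest library were both knockouts. Its log2 difference was -0.048 (SE 0.084, 95% confidence interval -0.24 to 0.14; limma adjusted p = 0.883). Vangl1 made up 25.7, 25.6 and 29.4% of the summed TPM of both genes in knockout mice 1 to 3, against 32.6, 31.2 and 33.1% in control mice 1 to 3. The share was lower in every knockout library than in every control library, with means of 26.9 ± 2.16% in knockouts and 32.3 ± 0.994% in controls. The sum of the pair overlapped between the groups, at 54.3 to 60.4 TPM in knockouts and 59.8 to 66.9 TPM in controls. The summed markers of epithelium and of endothelium were also lower in every knockout. Among the epithelial markers this held for Krt18, Krt8 and Epcam only. The others overlapped, and Cdh1, Gata3 and Ret had the higher mean in knockouts. Among the endothelial markers it held for Cdh5, Kdr and Tie1, while Pecam1 and Emcn overlapped. Whether the cells behind either sum have a part in the Vangl1 values was not tested.

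The Prickle genes encode LIM-domain proteins that bind Vangl from the cytoplasmic side. Prickle2 (ENSMUSG00000030020) was at 15.01, 12.3 and 16.8 TPM in knockout mice 1 to 3, against 17.1, 19.7 and 20.3 TPM in control mice 1 to 3. The groups did not overlap, though the highest knockout and the lowest control lay close together. The means were 14.7 ± 2.28 TPM in knockouts and 19.0 ± 1.72 TPM in controls (SD, n = 3 each), with a log2 difference of -0.36 (SE 0.14, 95% confidence interval -0.67 to -0.046; limma adjusted p = 0.369). For Prickle2 the authors' deposited table lists a log2 fold change of -0.36 (adjusted p = 0.0569). Prickle1 (ENSMUSG00000036158) was several times more abundant, at 118, 111 and 126 TPM in knockout mice 1 to 3, against 122, 136 and 146 TPM in control mice 1 to 3. Knockout 3 lay above control 1. Its log2 difference was -0.18 (SE 0.083, 95% confidence interval -0.37 to 0.0070; limma adjusted p = 0.462). Prickle2 made up 11.3, 9.98 and 11.8% of the summed TPM of both Prickle genes in knockout mice 1 to 3, against 12.3, 12.7 and 12.2% in control mice 1 to 3, again with no overlap. The share of Prickle1, the rest of the sum, was thus higher in every knockout.

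Vangl1 and Prickle2 were the only members whose groups did not overlap, both lower in the knockouts, where 8.49% of all tested genes were lower and 8.14% higher in every knockout library. This count depended on single libraries. It was 5 without control 1, with Prickle1, Ptk7 and Dchs1 added, where 16.5% of all tested genes were then lower, and 4 without knockout 1, with Celsr1 and Ptk7 added, where 12.9% were. It was 4 after scaling by median ratios, with Prickle1 and Ptk7 added, where 9.25% of all tested genes were lower.

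Prickle2 has 4 annotated starts in RefSeq, and a gene-level TPM does not tell which of them the reads came from. The 250 bases before the first start and before the next start downstream are shown because they differ in base composition. They come from RefSeq on build GRCm38.p6, which is not the build of the submitters' processing (GRCm39), and are printed in the direction of transcription with each CG in capitals.
Prickle2, chr6:92706185-92706434, minus strand: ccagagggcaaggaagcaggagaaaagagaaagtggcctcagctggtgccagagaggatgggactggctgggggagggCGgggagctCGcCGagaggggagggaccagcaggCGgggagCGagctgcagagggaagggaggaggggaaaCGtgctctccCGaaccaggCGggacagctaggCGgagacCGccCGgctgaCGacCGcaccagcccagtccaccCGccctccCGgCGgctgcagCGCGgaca
Prickle2, chr6:92567367-92567616, minus strand: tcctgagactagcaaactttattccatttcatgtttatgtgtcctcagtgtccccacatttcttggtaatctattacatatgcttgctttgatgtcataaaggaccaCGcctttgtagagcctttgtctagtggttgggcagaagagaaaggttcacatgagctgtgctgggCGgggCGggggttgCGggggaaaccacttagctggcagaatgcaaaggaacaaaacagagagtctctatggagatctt
The first holds 18 CG dinucleotides, more than 78.3% of the 32851 windows of that length in the table. The second holds 4, near the median of 6 over all windows. The letters CTTTGA, the core of the motif bound by the TCF and LEF partners of beta-catenin, were searched on both strands. They occur once in the second window, from base 87 on the printed strand, and in none of the other 10 windows of the 7 members found in the table, against 13.8% of all windows. A match of these letters is a description and does not show a bound site.

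Ptk7 (ENSMUSG00000023972) was the most abundant member in every library. It was at 339.7, 308.5 and 303.7 TPM in knockout mice 1 to 3, against 339.5, 380.9 and 400.3 TPM in control mice 1 to 3. Knockout 1 and control 1 were level, and the other knockouts lay below the other controls. The means were 317 ± 19.5 TPM in knockouts and 374 ± 31.1 TPM in controls (SD, n = 3 each), so the knockouts held 84.9% of the control level. The log2 difference was -0.23 (SE 0.078, 95% confidence interval -0.41 to -0.053), and limma gave it an adjusted p of 0.302. For Ptk7 the authors' deposited table lists a log2 fold change of -0.22 (adjusted p = 0.0861). Its recovered reads numbered 6849 to 8891 per library. Its promoter is shown as that of the member with the highest level, with 14 CG dinucleotides in capitals, in the direction of transcription (RefSeq, GRCm38.p6).
Ptk7, chr17:46629505-46629754, minus strand: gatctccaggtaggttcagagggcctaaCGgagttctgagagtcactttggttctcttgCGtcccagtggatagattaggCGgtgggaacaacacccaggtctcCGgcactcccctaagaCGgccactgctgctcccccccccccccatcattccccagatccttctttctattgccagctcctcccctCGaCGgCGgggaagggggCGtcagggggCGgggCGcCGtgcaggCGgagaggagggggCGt

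The Celsr genes encode the cadherins that carry polarity signals across cell borders. Celsr1 (ENSMUSG00000016028), the form known from epithelia, was at 22.7, 17.7 and 17.2 TPM in knockout mice 1 to 3, against 18.1, 22.6 and 29.0 TPM in control mice 1 to 3. The groups overlapped, since knockout 1 was above control 1. The log2 difference was -0.25 (SE 0.18, 95% confidence interval -0.66 to 0.16; limma adjusted p = 0.664). Celsr2 (ENSMUSG00000068740) was at 10.9, 8.71 and 7.87 TPM in knockout mice 1 to 3, against 7.74, 9.25 and 11.3 TPM in control mice 1 to 3. Its log2 difference was -0.031 (SE 0.17, 95% confidence interval -0.43 to 0.37; limma adjusted p = 0.965), an interval that leaves room for a difference of the size of that of Vangl1. Among the 9 tested members, these 2 had the widest intervals.

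Celsr1 and Celsr2 had the same highest libraries, both highest in knockout 1 among knockouts and in control 3 among controls. The share of Celsr1 in the summed TPM of Celsr1, Celsr2 and Celsr3 spread less than the levels. It was 66.0, 66.2 and 68.3% in knockout mice 1 to 3, against 69.4, 70.1 and 71.8% in control mice 1 to 3. Every knockout share was below every control share, although the Celsr1 levels overlapped. Celsr3 (ENSMUSG00000023473), known mainly from neurons, did not exceed 0.730 TPM. It was at 0.730, 0.306 and 0.0990 TPM in knockout mice 1 to 3, against 0.264, 0.361 and 0.0930 TPM in control mice 1 to 3, from 9 to 81 recovered reads. Knockout 1 was the highest. The 8 neuron and glia markers summed to 113, 68.0 and 53.9 TPM in knockout mice 1 to 3, against 61.3, 48.9 and 53.2 TPM in control mice 1 to 3, and 7 of them were highest in knockout 1 among the knockouts; their part in the Celsr3 values was not tested. The authors' deposited table gives Celsr3 an adjusted p of 0.797.

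**Figure D2:**
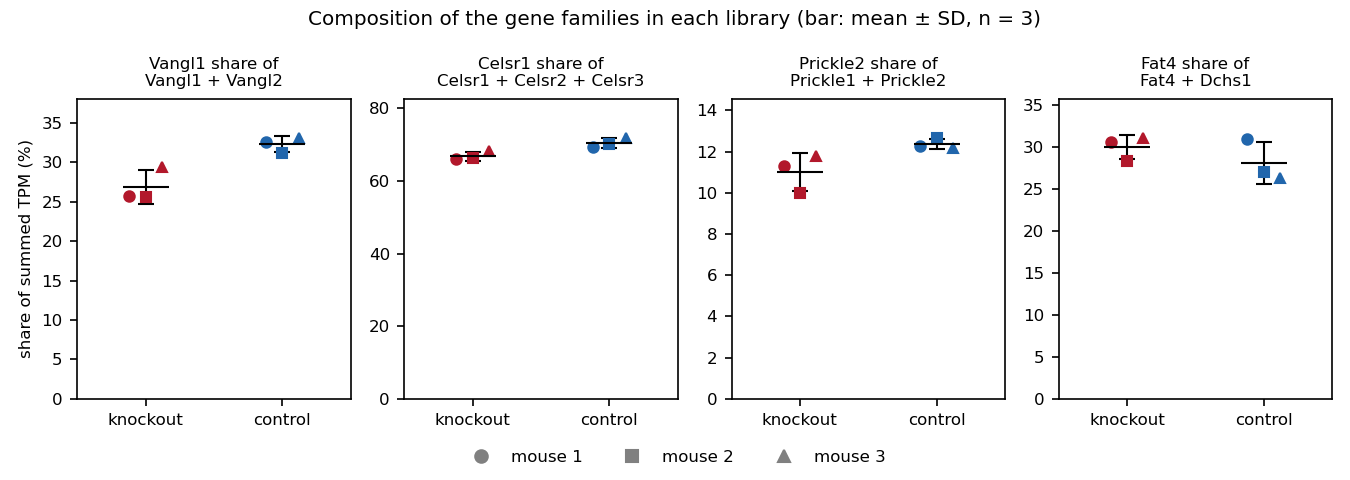
Share of a member in the summed TPM of its family, in percent (y axis, from 0), for each knockout library (left, red) and each control library (right, blue), with symbols for the mouse number and black bars for mean ± SD. The shares of Vangl1, Celsr1 and Prickle2 are lower in every knockout than in every control, and that of Fat4 overlaps. Shares within a family depend on each other, and those of Vangl2, Celsr2 and Prickle1 are in turn higher in every knockout. No rate of such separation over other gene families was computed.

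Fat4 and Dchs1 form the ligand and receptor pair of the giant cadherins, and loss of Fat4 widens tubules in the mouse kidney. Fat4 (ENSMUSG00000046743) had the smallest difference of the tested members. It was at 32.6, 29.3 and 29.8 TPM in knockout mice 1 to 3, against 30.0, 29.0 and 31.0 TPM in control mice 1 to 3. The log2 difference was 0.024 (SE 0.082, 95% confidence interval -0.16 to 0.21; limma adjusted p = 0.943), the only one above 0 among the 9. Dchs1 (ENSMUSG00000036862) was at 73.7, 74.2 and 65.9 TPM in knockout mice 1 to 3, against 66.8, 78.1 and 86.9 TPM in control mice 1 to 3. The groups overlapped, and control 1 was close to the lowest knockout. Its log2 difference was -0.11 (SE 0.10, 95% confidence interval -0.35 to 0.13; limma adjusted p = 0.759). Fat4 held 30.0 ± 1.49% of the summed TPM of the pair in knockouts and 28.1 ± 2.51% in controls (SD, n = 3 each), which differed by less than the spread among controls.

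**Figure D3:**
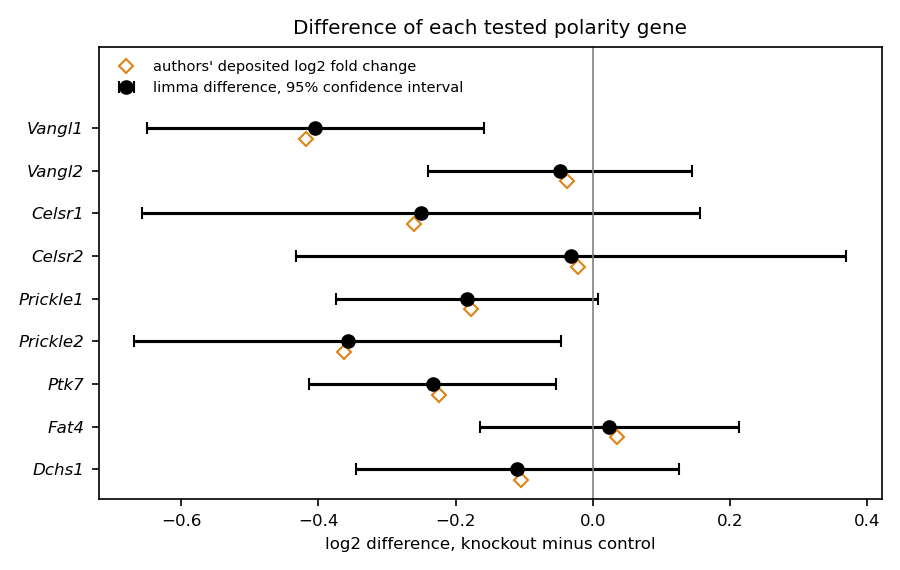
Log2 difference of knockout minus control for the 9 tested members (x axis) by limma on log2(TPM + 1), with bars for the 95% confidence interval, and the authors' deposited log2 fold change as open diamonds. The intervals of Vangl1, Prickle2 and Ptk7 lie below 0 and those of the other 6 members include 0; the adjusted p of each of the 9 was above 0.05.

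The order of the 10 levels was the same in both groups. By mean TPM it ran Ptk7, Prickle1, Dchs1, Vangl2, Fat4, Celsr1, Vangl1, Prickle2, Celsr2 and Celsr3. In controls, the ranges of Celsr1 and Vangl1 overlapped, as did those of Vangl1 and Prickle2. In knockouts, the ranges of Vangl1 and Prickle2 overlapped and those of Celsr1 and Vangl1 did not. All other neighbours in the order were apart in both groups.

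The libraries of a group also differed from each other in a shared way across these genes. Among controls, 8 of the 10 members were lowest in control 1 and 9 of 10 highest in control 3, where 48.6% and 42.7% of all tested genes were. Among knockouts, 6 of 10 members were highest in knockout 1, against 30.7% of all tested genes. These 6 were Vangl2, Celsr1, Celsr2, Celsr3, Ptk7 and Fat4, while Vangl1, Prickle1 and Prickle2 were highest in knockout 3. Such a pattern was not limited to the members. Lowest in control 1 were 6 of 8 mesenchyme and 5 of 10 epithelial markers, with 1 to 3 in each other marker list. Highest in knockout 1 were 7 of 8 neuron and glia, 6 of 10 epithelial, 5 of 9 gonadal and 4 of 8 mesenchyme markers. Each other marker list had 0 or 1.

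Genes that act with the polarity core were described from 4 lists. Among 14 partners of the core, 0 were higher and 0 lower in the limma test over all genes. Without adjustment, 1 was higher and 1 lower at p under 0.05, against 5.35% and 5.92% of all tested genes. The authors' deposited table marks 1 as lower, against 2.17% of its genes, and the median log2 difference was 0.058. Fzd6, a Frizzled receptor of the polarity branch, averaged 20.2 ± 1.26 TPM in knockouts and 26.4 ± 1.80 TPM in controls, with no overlap (log2 difference -0.37, SE 0.096; limma adjusted p = 0.187). The authors' deposited table gives Fzd6 an adjusted p of 0.0183. Its close relative Fzd3 averaged 20.8 ± 2.78 TPM in knockouts and 22.7 ± 2.18 TPM in controls, and the groups overlapped. Fzd7, a receptor of both Wnt branches, differed by 0.17 on the log2 scale (SE 0.067; limma adjusted p = 0.381), with every knockout library above every control library. Smurf2, a ubiquitin ligase that acts on Prickle, differed by -0.17 (SE 0.085; limma adjusted p = 0.530), with every knockout library below every control library. The difference was 0.062 (SE 0.13) for Scrib, a scaffold protein that binds Vangl2.

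Of 8 Wnt ligands and co-receptors of the polarity branch, 1 was lower, 0 were higher and 7 did not pass the test, where limma called 0.313% of all tested genes lower. Without adjustment, 4 were lower and 0 higher at p under 0.05, against 5.92% and 5.35% of all tested genes. The authors' deposited table marks 2 as lower, Wnt5a and Wnt9b, against 2.17% of its genes. The one that passed limma was Wnt5a, the ligand that signals through Ror2 to Vangl2. It was at 102, 115 and 126 TPM in knockout mice 1 to 3, against 163, 164 and 161 TPM in control mice 1 to 3 (log2 difference -0.51, SE 0.080; limma adjusted p = 0.0467; authors' deposited adjusted p 2.87e-07). Over the 14 settings run, the one reported included, Wnt5a was called in 5. Of the 6 omissions of a library the call held only in the one without knockout 3, with adjusted p-values from 0.0190 to 0.226, and the log2 difference lay between -0.58 and -0.43 over all 14. Ror2 itself averaged 46.7 ± 4.98 TPM in knockouts and 55.1 ± 11.4 TPM in controls (log2 difference -0.22, SE 0.15), and Wnt11 48.8 ± 4.17 TPM in knockouts and 48.3 ± 3.98 TPM in controls (log2 difference 0.016, SE 0.094). In 5 of the 8, namely Wnt5a, Wnt9b, Wnt4, Ror1 and Ryk, every knockout library lay below every control library, as in 8.49% of all tested genes. Wnt4, Ror1 and Ryk were named after their values were seen. Wnt9b is the targeted gene, so its values are no independent observation on the list. It nevertheless enters the counts and the median of the list.

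Among 12 cytoplasmic effectors, 0 were higher and 0 lower in limma (0 at an unadjusted p under 0.05) and 0 by the adjusted p of the authors' deposited table, with log2 differences between -0.27 and 0.059. Intu, an effector needed for cilia, had a log2 difference of -0.27 (SE 0.15) and the GTPase gene Rac1 one of -0.065 (SE 0.061). For Intu every knockout library lay below every control library, though narrowly, with the highest knockout at 8.28 TPM and the lowest control at 8.41 TPM. Of 23 Fat, Dachsous and Hippo genes, 20 were tested, and 0 were higher and 0 lower in limma (5 lower and 0 higher at an unadjusted p under 0.05, against 5.92% and 5.35% of all tested genes). The adjusted p of the authors' deposited table marks 2 as lower, against 2.17% of its genes. These were Fat3 and Fat1, relatives of Fat4. Fat3 averaged 14.0 ± 1.04 TPM in knockouts and 22.1 ± 3.25 TPM in controls (log2 difference -0.62, SE 0.13; limma adjusted p = 0.111; authors' deposited adjusted p 1.69e-08). Fat1 averaged 53.5 ± 7.16 TPM in knockouts and 71.5 ± 6.89 TPM in controls (log2 difference -0.42, SE 0.11; limma adjusted p = 0.192; authors' deposited adjusted p 0.00176). Neither group pair overlapped. On the recovered reads limma-voom called both, with adjusted p-values of 0.00484 for Fat3 and 0.0498 for Fat1, where it called 1.60% of genes. That was the only one of the 14 settings to call either, and the adjusted p reached 0.379 for Fat3 and 0.510 for Fat1.

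Fjx1, the counterpart of a fly kinase that modifies the cadherin repeats of Fat and Dachsous, averaged 38.7 ± 2.91 TPM in knockouts and 47.9 ± 1.43 TPM in controls, with no overlap (log2 difference -0.30, SE 0.081; limma adjusted p = 0.193). Yap1, the Hippo pathway co-activator, averaged 127 ± 4.60 TPM in knockouts and 123 ± 5.23 TPM in controls (log2 difference 0.045, SE 0.062; limma adjusted p = 0.843). The median log2 difference of the Fat, Dachsous and Hippo list was -0.055, that of the cytoplasmic effectors -0.034 and that of the Wnt ligands and co-receptors -0.20.

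**Figure D4:**
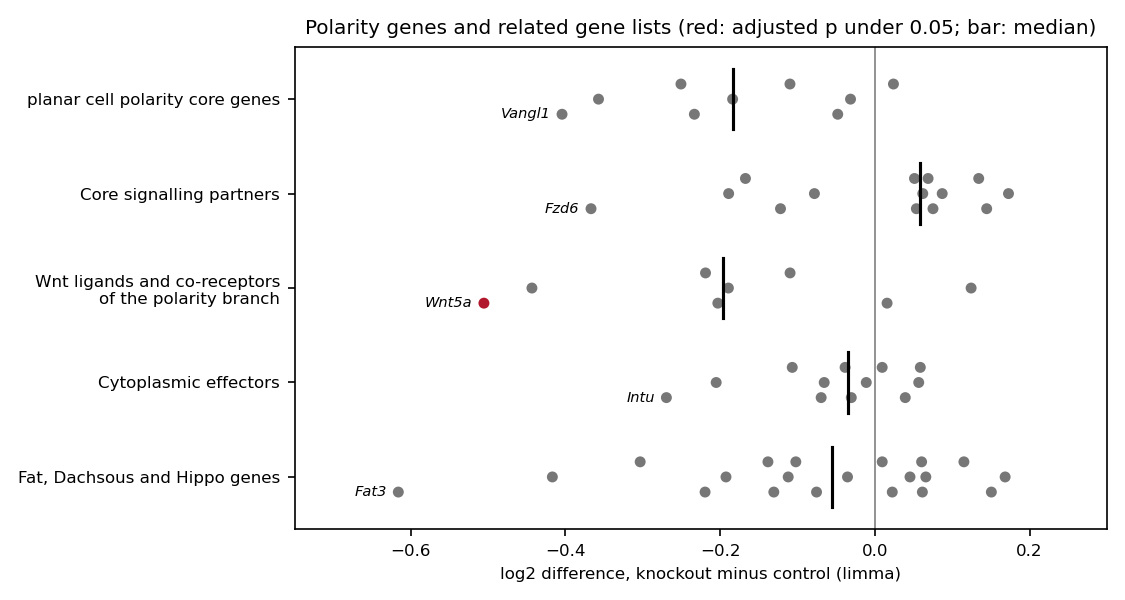
Log2 difference of knockout minus control by limma (x axis) for each tested gene of the polarity core and of 4 related lists (rows), with the lowest gene of each row named, a black bar at the row's median and red for an adjusted p under 0.05. Wnt5a is the only red point, and Fat3 has the lowest value, at -0.62.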

How the data were processed

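Total RNA was isolated with a PicoPure kit, enriched for poly(A) and read as paired ends, per the labels' protocols. Build GRCm39 and DESeq2 are named in the submitters' processing notes; which aligner, counting tool, strand setting and annotation were used is not given in the sources used here. Per the file headers, the authors deposited 1 TPM column per embryo, each summing to 1000000 over 20033 genes. The same table holds a log2 fold change (knockout over control), a p-value and an adjusted p-value computed by the authors, quoted only where named as such.

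Samples were grouped by title. Levels were taken as log2(TPM + 1) and tested with limma (version 3.58.1, R 4.3.3) with genotype as the only term and a trend of variance on mean, keeping genes that reached 1 TPM in 3 or more libraries. A difference on this scale understates the change of low genes. Nothing says that the mice came from separate litters. Within a gene, TPM over a factor per library is a whole multiple of 1 read: 99.95% of genes gave whole numbers to within 0.02 reads, of which a factor common to all libraries is lost, so read numbers are lower bounds. Genes of very high count were not recovered. The steps were tested on simulated data with changes larger than those of the tested members. That simulation does not show how often differences of their size would be found. The alternatives were another pseudocount (0.1), no filter, scaling by median ratios, removal of erythroid genes, limma-voom, no trend, a replicate block and leaving out each library. The members and gene lists were chosen with earlier results of these data known. Of other lists, genes past the test were named, or else the 3 with the smallest p, and Fzd3, Fzd6, Scrib, Wnt5a, Wnt11, Ror2, Fjx1, Yap1 and Wnt9b in any case. A gene that this rule names among the cytoplasmic effectors is not reported here. Family shares carry no test, and how often shares separate in other gene families was not computed.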

Additional observations from a re-analysis of the deposited data

How the results depend on the processing

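No polarity gene passed the test under any of the 13 alternatives. Of 117 log2 differences of the 9 tested members under these alternatives, 114 kept their direction; the others were Celsr2 at 0.062 without knockout 3 and 0.093 without control 3, and Fat4 at -0.022 without knockout 1, all near 0, so that the ranges over single omissions were -0.15 to 0.093 for Celsr2 and -0.022 to 0.052 for Fat4, and the cause was not tested. The count of all genes called, 78, was 281 with limma-voom on recovered reads, 28 without the mean-variance trend, 17 with mouse number as a replicate block, and 13 to 243 when single libraries were left out; 0 members were called in each case. Whether mice of the same number form a pair is not stated in the labels. Deviations of same-numbered mice from their group means correlated at -0.064, 0.050 and -0.051 for mice 1 to 3. Not every library correlated best with its own number. With 3 mice a group, these correlations cannot tell whether mice shared a litter or batch. Members whose groups do not overlap, all lower in knockouts, numbered 2, where 8.49% of all tested genes were lower. They numbered 3 with erythroid genes removed (8.45% of all tested genes) and 4 after scaling by median ratios (9.25%). When single libraries were left out they numbered 2 to 5, where 11.2% to 19.7% of all tested genes were lower. Scaling by median ratios moved the median log2 difference of all genes from -0.0075 to 0.00061. With 3 embryos a group, an adjusted p above 0.05 does not show that a level was the same. Celsr3, at 9 to 81 reads, lay under the filter on low values, and intervals on the other members are given beside their values.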

Other observations

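The composition of the Fat family was looked at after its values were seen and carries no test. Fat4 made up 30.0, 32.3 and 31.3% of the summed TPM of Fat1, Fat2, Fat3 and Fat4 in knockout mice 1 to 3, against 26.3, 23.7 and 22.9% in control mice 1 to 3. Every knockout share was above every control share, while the level of Fat4 overlapped between the groups. Fat1 and Fat3 were lower in every knockout, which raises the share of Fat4 by arithmetic. The higher share is thus no separate result about Fat4. The sum of the family was 109, 90.9 and 95.2 TPM in knockout mice 1 to 3, against 114, 122 and 135 TPM in control mice 1 to 3, with no overlap. Fat3 held 14.3 ± 1.29% of it in knockouts and 17.7 ± 1.10% in controls (SD, n = 3 each).

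Dchs2, the paralog of Dchs1, was too low for the filter, at 0.423, 0.497 and 0.509 TPM in knockout mice 1 to 3, against 0.820, 0.775 and 0.994 TPM in control mice 1 to 3. Every knockout library was below every control library, on 42 to 86 recovered reads; the authors' deposited table lists Dchs2 at adjusted p = 0.194. This gene was named after its values were seen.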
